A study of Mus musculus with 15 samples.

Results

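The 35 genes described here belong to the interferon response and to antigen presentation by major histocompatibility complex (MHC) class I molecules. They were chosen by gene symbol among 41591 gene IDs, and 34 of them had enough counts to be tested with 19388 genes in all. The study measured mRNA in whole epididymides of mice aged 7 weeks, with 5 knockouts labelled Plag1 -/- (KO), 5 heterozygotes labelled Plag1 -/+ (HET) and 5 wild-type mice (WT). Each library came from 1 animal, is named by genotype and animal number, and carries the strain label Brown Swiss. The epididymides had been rinsed in saline to reduce sperm, and the mRNA was sequenced with a stranded kit. The labels do not say how the Plag1 allele was made, nor which litters the animals came from. Plag1 codes for a DNA-binding protein with zinc fingers.

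Interferons are secreted when cells sense viral nucleic acid or when lymphocytes are activated. Their receptors signal through Janus kinases to STAT and IRF proteins, which switch on genes that hold an interferon-stimulated response element (ISRE) or a gamma-activated site (GAS). The products block viral replication, and they also raise the supply of peptides that class I molecules show to T cells. The epididymis stores maturing sperm, which carry antigens that arise after self-tolerance is set, and resident macrophages and other immune cells line its duct.

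Library totals ran from 25.3 to 42 M counts in KO, 23.6 to 33.8 M in HET and 20.3 to 27.8 M in WT. Ribosomal RNA genes held the largest share of counts in KO-738 (0.199%) and HET-693 (0.193%), against 0.047% to 0.123% in the other libraries. An alternative fit left out both libraries together, and the part this share has in the results was not tested. Levels are given as CPM, counts scaled to each library's effective total. Plag1 itself averaged 8.32 ± 0.97 CPM in KO, 10.1 ± 1.38 CPM in HET and 12.7 ± 0.87 CPM in WT (SD, n = 5 each), and the KO and WT libraries did not overlap (log2 fold change -0.61 ± 0.10, SE, edgeR adjusted p = 0.0049). Markers of the epididymal epithelium were abundant in every library (Lcn5 ran from 3964 to 8699 CPM in KO), and 0 of 8 were called between KO and WT by edgeR, DESeq2 or limma voom, with 0 at an unadjusted edgeR p under 0.05. Markers of several other cell types were higher in the KO group. EdgeR called 7 of 10 macrophage, 5 of 6 endothelial and 5 of 6 fibroblast markers higher in KO against WT, beside 4.40% of all genes. It called 2 of 8 germ cell markers and 1 of 3 tested plasmacytoid dendritic cell markers higher. The latter was Tcf4, at 41.9 to 51.7 CPM in KO and 34.3 to 42.5 CPM in WT. Siglech, at 2.19 to 3.08 CPM in KO and 1.89 to 2.37 CPM in WT, was not called. EdgeR called 0 of 6 skeletal muscle and 0 of 5 adipocyte markers, though all of these were higher at an unadjusted edgeR p under 0.05. DESeq2 called 3 of 5 adipocyte markers higher and limma voom 0. For skeletal muscle, DESeq2 and limma voom each had 0 of 6 markers at an unadjusted p under 0.05. Summed macrophage markers ran from 128.1 CPM in KO-738 to 217.8 CPM in KO-695, against 104.7 to 128.6 CPM in WT. Single KO libraries stood apart: KO-696 was highest in summed germ cell markers (153.0 CPM, against 24 to 57.4 CPM in WT), KO-739 in skeletal muscle markers (3908.9 CPM, against 37.7 to 76.4 CPM in WT) and KO-695 in adipocyte markers (161.8 CPM, against 6.9 to 29.0 CPM in WT). In whole tissue, more cells of a type and more RNA per cell cannot be told apart. What part these markers have in the results was not tested.

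In KO against WT, 3 members were called higher (adjusted p under 0.05 in edgeR's quasi-likelihood test) and 0 lower. They were Rsad2, whose product viperin makes an antiviral nucleotide, Gbp2, an interferon-induced GTPase, and Tap1, which codes for a chain of the peptide transporter that feeds class I molecules. The 3 made up 8.82% of the 34, near the 6.0% of all genes called (4.40% higher and 1.60% lower). A log2 fold change above 0 was seen in 29 of 34 members, against 46.8% of all genes. The median member stood at 0.17 on the log2 scale, against -0.012 for all genes. At an unadjusted p under 0.05 there were 6 higher and 3 lower members, 26.5% of those tested, beside 23.6% of all genes. DESeq2 and limma voom each called the same 3 members and Gbp3 higher, and 1 lower, H2-K1 by DESeq2 and B2m by limma voom, beside 9.95% of all genes called by DESeq2 and 8.43% by limma voom.

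Rsad2 (NCBI Gene ID 58185) lies at chr12:26442743-26456452, Gbp2 (14469) at chr3:142620663-142638008 and Tap1 (21354) at chr17:34187556-34197225 of GRCm38.p6. Rsad2 had 5.15, 4.42, 6.81, 4.01 and 6.18 CPM in the KO libraries (KO-694, KO-695, KO-696, KO-738 and KO-739, in which order all KO values follow), 2.88, 2.57, 2.93, 3.82 and 2.32 CPM in the HET libraries (HET-692, HET-693, HET-715, HET-718 and HET-735) and 3.42, 2.71, 2.54, 2.56 and 3.26 CPM in the WT libraries (WT-709, WT-719, WT-720, WT-723 and WT-726). Every KO library lay above every HET and every WT library. Rsad2 was the only member of which this was true against WT, beside 2.84% of all genes with all KO above all WT libraries; 0 members lay wholly below, beside 1.37% of genes. KO exceeded WT by 0.88 ± 0.17 (SE) on the log2 scale (edgeR adjusted p = 0.0087) and HET by 0.87 (edgeR adjusted p = 0.023). Rsad2 remained called against WT whichever single library was left out. With the animals numbered from 700 up alone, 2 of them KO, the difference was 0.82, with an edgeR adjusted p of 0.138.

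Gbp2 had 10.4, 9.59, 14.5, 8.17 and 13.5 CPM in the KO libraries, 8.44, 7.20, 8.46, 8.91 and 8.99 CPM in the HET libraries and 6.87, 7.22, 9.07, 7.38 and 7.54 CPM in the WT libraries. All KO libraries but KO-738 lay above the highest WT library, and KO-696 and KO-739 were well above the rest. KO exceeded WT by 0.56 ± 0.14 (SE) on the log2 scale, with an edgeR adjusted p of 0.030. The call was lost without KO-696 (0.45, edgeR adjusted p = 0.091), without KO-739 (0.49, edgeR adjusted p = 0.055) and without WT-709, WT-719, WT-723 or WT-726 (edgeR adjusted p of 0.081, 0.063, 0.069 and 0.059). It was also lost with KO and WT fitted alone, with the number range (below 700 or not) as a term, and with the animals from 700 up alone (edgeR adjusted p of 0.086, 0.100 and 0.208), at log2 fold changes of 0.57, 0.58 and 0.51, as the share of all genes called was 1.52%, 0.913% and 0.00%. Gbp2 did not pass in KO against HET (0.42, edgeR adjusted p = 0.10).

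Tap1 had 2.01, 2.57, 2.63, 1.63 and 2.33 CPM in the KO libraries, 1.21, 0.69, 1.37, 1.35 and 0.95 CPM in the HET libraries and 1.84, 1.25, 0.89, 0.84 and 0.73 CPM in the WT libraries. The KO libraries did not overlap the HET ones, and only KO-738 lay below the highest WT library. These levels rest on 18 to 114 counts per library, and the log2 fold change was 1.01 ± 0.25 (SE) against WT (edgeR adjusted p = 0.029) and 1.0 against HET (edgeR adjusted p = 0.047). The call against WT was lost without KO-695 or KO-696 (edgeR adjusted p of 0.064 and 0.081) and without WT-719, WT-720, WT-723 or WT-726 (edgeR adjusted p of 0.053, 0.072, 0.074 and 0.064), with log2 fold changes of 0.89 to 1.06. With KO and WT fitted alone, with the number range as a term and with the animals from 700 up alone, the edgeR adjusted p was 0.073, 0.109 and 0.253, at log2 fold changes of 1.02, 1.01 and 0.84.

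**Figure D1:**
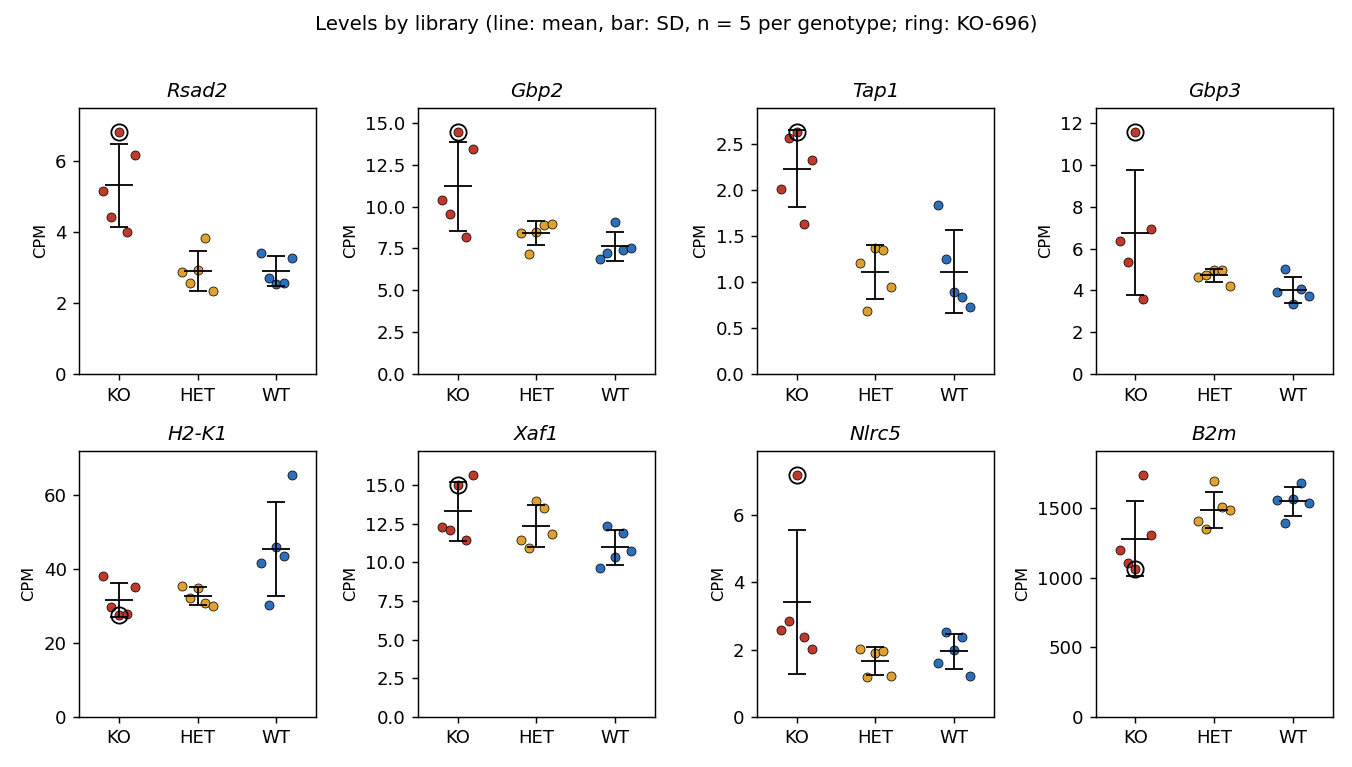
CPM per library (vertical axes from 0) in KO, HET and WT for the 8 members with the smallest p in KO against WT; each point is 1 animal, the lines are means, the bars SD (n = 5) and the ring marks KO-696. Rsad2 separated all KO libraries from all others, and KO-738 was the lowest KO library for Rsad2, Gbp2, Tap1 and Gbp3 but the highest for B2m.

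The bases upstream of these genes are shown because the interferon signal reaches its targets through short elements there. The windows are the 250 bases before the RefSeq gene start on GRCm38.p6, read along the gene. Capitals mark matches to the ISRE core, which is GAAA, any 2 bases and GAAA again, or to its reverse complement, TTTC, any 2 bases and TTTC. The windows are Rsad2 (minus strand, chr12:26456453-26456702), Gbp2 (plus strand, chr3:142620413-142620662) and Tap1 (plus strand, chr17:34187306-34187555), which were called, and Isg15 (minus strand, chr4:156200819-156201068), Ifit1 (plus strand, chr19:34640639-34640888) and B2m (plus strand, chr2:122147437-122147686), which hold ISRE cores and were not called by edgeR (Isg15 was not tested, and limma voom called B2m lower).
Rsad2: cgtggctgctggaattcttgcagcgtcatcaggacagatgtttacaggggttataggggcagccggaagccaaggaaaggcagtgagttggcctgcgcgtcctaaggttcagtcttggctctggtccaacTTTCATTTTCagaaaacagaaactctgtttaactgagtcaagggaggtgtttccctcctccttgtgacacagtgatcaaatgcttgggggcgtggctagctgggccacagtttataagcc
Gbp2: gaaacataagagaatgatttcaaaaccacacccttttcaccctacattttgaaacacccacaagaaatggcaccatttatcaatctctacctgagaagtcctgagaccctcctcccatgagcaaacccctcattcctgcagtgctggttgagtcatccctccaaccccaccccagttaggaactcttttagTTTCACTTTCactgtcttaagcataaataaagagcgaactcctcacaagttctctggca
Tap1: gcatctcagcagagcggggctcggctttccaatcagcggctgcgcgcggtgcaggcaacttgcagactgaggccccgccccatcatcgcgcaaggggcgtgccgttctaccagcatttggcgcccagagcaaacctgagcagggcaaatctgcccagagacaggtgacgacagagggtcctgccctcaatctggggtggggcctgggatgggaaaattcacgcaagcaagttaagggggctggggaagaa
Isg15: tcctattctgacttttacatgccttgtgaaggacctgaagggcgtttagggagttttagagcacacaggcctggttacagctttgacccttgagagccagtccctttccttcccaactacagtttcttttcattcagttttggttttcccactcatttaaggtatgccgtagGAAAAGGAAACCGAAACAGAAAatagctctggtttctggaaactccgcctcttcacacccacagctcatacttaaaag
Ifit1: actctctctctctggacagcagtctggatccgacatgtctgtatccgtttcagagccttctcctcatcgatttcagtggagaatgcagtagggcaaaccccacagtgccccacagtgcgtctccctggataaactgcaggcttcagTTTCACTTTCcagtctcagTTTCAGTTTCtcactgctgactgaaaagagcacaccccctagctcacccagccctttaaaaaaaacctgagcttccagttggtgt
B2m: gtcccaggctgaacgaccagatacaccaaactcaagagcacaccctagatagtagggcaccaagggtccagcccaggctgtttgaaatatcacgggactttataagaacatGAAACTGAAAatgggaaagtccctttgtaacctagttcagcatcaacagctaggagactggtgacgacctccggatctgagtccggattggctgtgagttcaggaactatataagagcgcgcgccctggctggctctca
The match began at -120 from the gene start in Rsad2, at -59 in Gbp2 and at -139 in B2m. Ifit1 held separate matches at -104 and -85, and Isg15 held 3 that overlap, from -78. Tap1 held none.

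Across the members, 28 of 35 had a window in the RefSeq table. These 28 had 33 windows, some of which, as for Ifit3, reached into the gene record, and a motif in any window counted. Of these 28 members, 12 (42.9%) held an ISRE core on either strand, against 3.46% of 27025 genes. The palindromic GAS motif TTCNNNGAA was present in 6 of 28 members (21.4%) and 8.13% of genes. The members with a GAS were Bst2, where it overlaps an ISRE core, Gbp7, Ifit2, Irf1, Oas1a and Psmb8. Of the tested members with an ISRE core, 9 of 11 had a log2 fold change above 0 in KO against WT, with a median of 0.14 and 2 called, and 13 of 16 without one did, with a median of 0.11 and 1 called. Only exact matches within these windows were counted, so members without one may still hold a variant or more distant element. The Tap1 and Psmb9 windows share 225 bases on opposite strands (chr17:34187331-34187555), so the genes start back to back.

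None of the signalling members was called. Stat2, Irf9 and Irf7 form or follow the type I interferon signal and Irf1 the gamma signal. Their log2 fold changes in KO against WT ran from 0.01 to 0.10, and 0 of 4 were called by edgeR, DESeq2 or limma voom or reached an unadjusted p under 0.05. Irf9, the DNA-binding part of the complex that also holds STAT2, was the most abundant of them per exon length. It had 74.6, 64.9, 76.5, 67.5 and 76.6 CPM in KO, 65.5, 73.8, 85.0, 78.1 and 73.9 CPM in HET and 67.0, 76.3, 69.9, 72.2 and 67.3 CPM in WT. The KO and WT ranges overlapped, HET-715 and HET-718 lay above both, and the difference of KO from WT was 0.03 ± 0.07 (SE).

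The RNA sensors Ddx58 (RIG-I) and Ifih1 (MDA5) were not called either. Ddx58 had 39.4, 40.5, 42.7, 35.7 and 40.8 CPM in KO, 41.8, 41.1, 36.8, 36.5 and 37.8 CPM in HET and 36.8, 39.5, 35.9, 33.8 and 40.9 CPM in WT, and the difference of KO from WT was 0.09 ± 0.06 (SE). No genotype stood out in these values. Zbp1, which senses Z-form nucleic acid, held under 1 CPM in all libraries but KO-696, where it had 1.45 CPM. Its log2 fold change of 0.77 had an edgeR adjusted p of 0.271. Usp18, which removes ISG15 from proteins and damps the receptor, had 3.21, 2.54, 4.59, 2.85 and 3.73 CPM in KO, 3.03, 4.01, 4.44, 3.75 and 3.18 CPM in HET and 2.65, 3.31, 3.79, 3.51 and 2.69 CPM in WT. Again the groups overlapped, with a difference of KO from WT of 0.09 ± 0.17 (SE). Isg15, the ubiquitin-like modifier itself, had 2 to 12 counts per library and was the member not tested, with 0.08 to 0.24 CPM in KO, between 0.11 and 0.35 CPM in HET, and between 0.11 and 0.41 CPM in WT.

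Of the 14 antiviral effectors, 1 was called higher in KO against WT (Rsad2) and 0 lower by edgeR, DESeq2 or limma voom. At an unadjusted p under 0.05 there were 2 higher and 1 lower. These shares, 7.14% and 21.4%, lay near the 6.0% and 23.6% of all genes. The median log2 fold change was 0.21, from -0.85 for Oas3 to 0.88 for Rsad2. Bst2 (tetherin, which holds budding virions at the cell surface) was the most abundant effector per exon length. It had 7.62, 8.95, 8.91, 6.04 and 8.21 CPM in KO, 7.12, 5.35, 6.45, 7.60 and 7.14 CPM in HET and 7.64, 7.52, 7.97, 9.28 and 4.93 CPM in WT, and the difference of KO from WT was 0.09 ± 0.15 (SE). The WT libraries spanned the KO range in full.

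Xaf1, an interferon-induced partner of the apoptosis inhibitor XIAP, had 12.3, 12.1, 14.99, 11.5 and 15.7 CPM in KO, 11.4, 10.9, 14.0, 13.5 and 11.8 CPM in HET and 9.64, 12.4, 10.3, 11.9 and 10.7 CPM in WT. Only KO-696 and KO-739 exceeded the highest WT library. Its log2 fold change of 0.28 ± 0.10 (SE) had an edgeR adjusted p of 0.118, and 0.047 without KO-738.

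The other effectors gave no call. The Ifit proteins bind viral RNA, and Ifit1, Ifit2 and Ifit3 differed by 0.19, 0.12 and 0.01 on the log2 scale. The 2′-5′ oligoadenylate synthetases activate an RNA-cutting enzyme. Oas1a and Oas2 differed by 0.14 and 0.38 and Oas3 by -0.85, with an edgeR adjusted p of 0.159. Their relatives Oasl1 and Oasl2 differed by 0.55 and 0.26. Oas3 rests on 4 to 14 counts per library. Ifi44 differed by 0.46 (edgeR adjusted p = 0.317). The dynamin-like GTPases Mx1 and Mx2, both recorded in the RefSeq table as transcribed pseudogenes on this assembly, differed by 0.22 and 0.21.

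**Figure D2:**
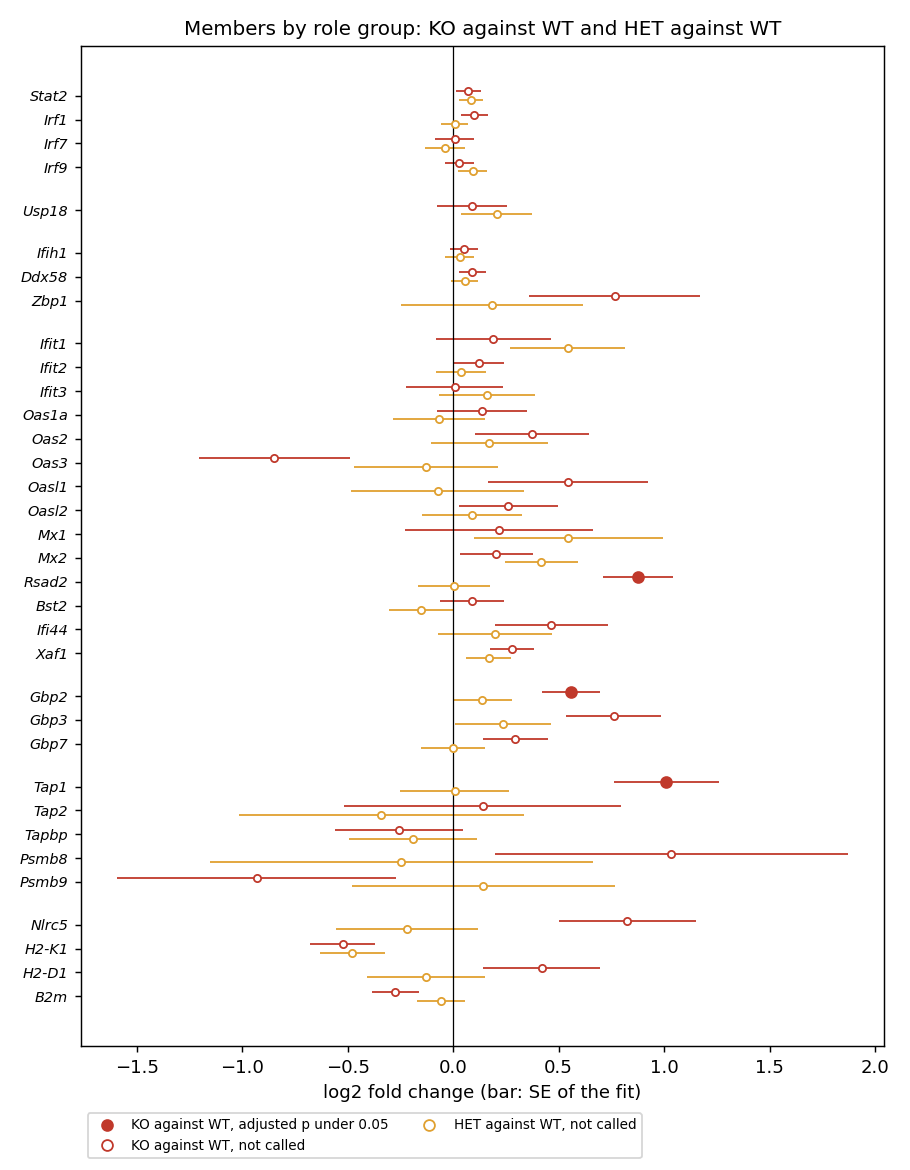
Log2 fold change (horizontal axis) with its SE for the 34 tested members, grouped by role from signalling at the top to class I molecules at the bottom, for KO against WT and HET against WT. Filled points mark the 3 members called, Rsad2, Gbp2 and Tap1, all in KO against WT; the widest bars belong to Tap2, Psmb8 and Psmb9.

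The guanylate-binding proteins attack the membranes around pathogens. All 3 members had log2 fold changes above 0 in KO against WT, and edgeR called Gbp2 alone, while DESeq2 and limma voom called Gbp2 and Gbp3. Gbp3 had 6.35, 5.34, 11.6, 3.60 and 6.96 CPM in KO, 4.65, 4.74, 4.97, 4.98 and 4.21 CPM in HET and 3.92, 5.02, 3.32, 4.06 and 3.75 CPM in WT. KO-696 was highest, and KO-738 lay within the WT range. The log2 fold change of 0.76 ± 0.23 (SE) had an edgeR adjusted p of 0.057 (DESeq2 0.018, limma voom 0.036). It was 0.93 without KO-738 (edgeR adjusted p = 0.0036), 0.47 without KO-696 (0.133) and 0.41 with the animals from 700 up alone (0.396). Gbp7 had 22.6 CPM in KO-696 and 11.3 to 14.9 CPM in the other KO libraries, against 10.8 to 13.1 CPM in WT (log2 fold change 0.30, edgeR adjusted p = 0.263).

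The class I genes did not move as 1 group. Beside Tap1, the other genes that supply and load peptides were not called, and single animals stood high within each genotype. Tap2, the second chain of the same transporter, had 5.95 CPM in KO-695 and 0.69 to 0.96 CPM in the other KO libraries, between 0.60 and 2.29 CPM in HET, and between 0.53 and 3.65 CPM in WT. Psmb8, a catalytic subunit of the immunoproteasome, had 4.78 CPM in KO-696 and 0.39 to 0.93 CPM in the other KO libraries, between 0.28 and 1.5 CPM in HET, and between 0.10 and 2.27 CPM in WT. For both genes all genotypes overlapped. On the log2 scale KO differed from WT by 0.14 ± 0.65 (SE) in Tap2 and 1.03 ± 0.84 (SE) in Psmb8, and in Psmb8 the difference was -0.34 without KO-696.

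Psmb9, another immunoproteasome subunit and the divergent neighbour of Tap1, had 0.31, 0.36, 0.23, 0.41 and 0.87 CPM in KO, 0.44, 1.05, 1.48, 1.38 and 0.22 CPM in HET and 0.73, 0, 1.43, 1.53 and 0.33 CPM in WT. All KO libraries lay below 1 CPM, while 3 HET and 2 WT libraries lay above it. KO differed from WT by -0.93 ± 0.66 (SE, log2, edgeR adjusted p = 0.430), and the genotypes overlapped. The sign was opposite to that of Tap1 but was not established at this spread. The 0 in WT-719 allows up to 0.148 CPM (3 counts of that library's total, counting error only).

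Tapbp (tapasin, which holds class I molecules to the transporter) was the most abundant supply gene per exon length. It had 14.8, 7.35, 7.46, 13.2 and 7.34 CPM in KO, 17.3, 7.92, 8.85, 9.72 and 8.43 CPM in HET and 9.95, 9.58, 20.9, 11.5 and 7.5 CPM in WT. At least 1 library stood high in each genotype, and the difference of KO from WT was -0.26 ± 0.30 (SE). Psmb9, Tap1, Psmb8 and Tap2 lie next to each other on chromosome 17, from 34182030 to 34216321 of GRCm38.p6, and the highest library was WT-723 for Psmb9, KO-696 for Tap1 and Psmb8 and KO-695 for Tap2.

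**Figure D3:**
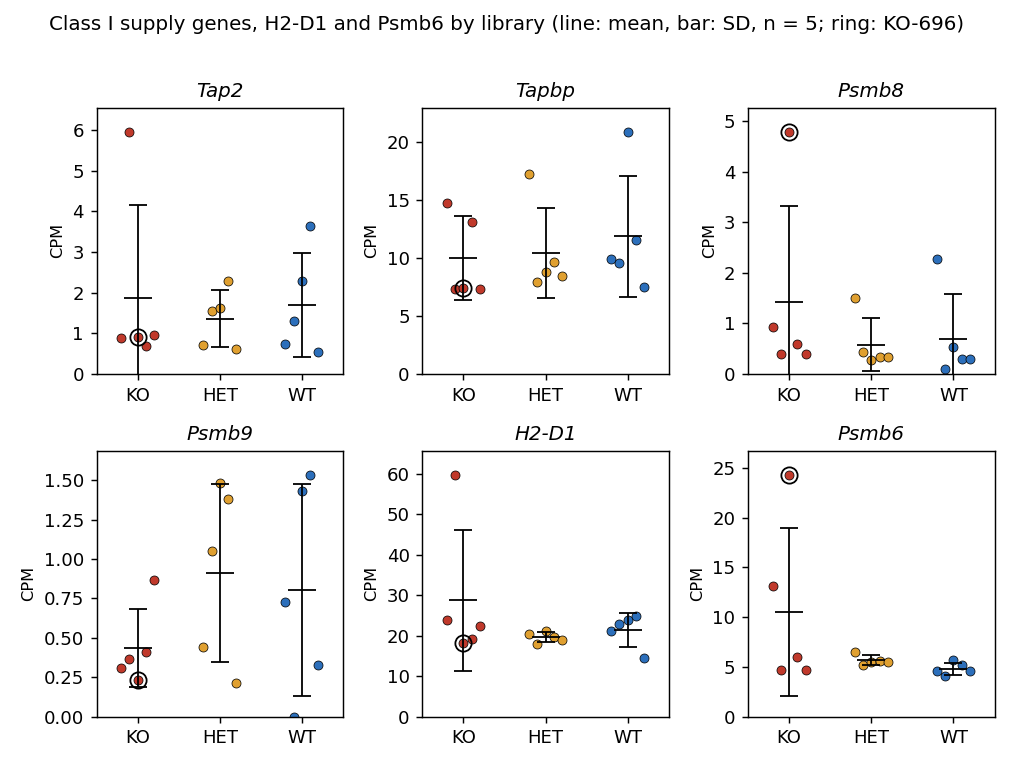
CPM per library (vertical axes from 0) in KO, HET and WT for 4 peptide supply genes, H2-D1 and the constitutive proteasome subunit Psmb6; points are animals, lines means, bars SD (n = 5, drawn down to 0 at most) and the ring KO-696. Single libraries carried the high values, such as KO-695 for Tap2 (5.95 CPM) and H2-D1 (59.7 CPM) and KO-696 for Psmb8 (4.78 CPM) and Psmb6 (24.3 CPM).

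Nlrc5, the transactivator of class I genes, had 2.59, 2.85, 7.20, 2.38 and 2.03 CPM in KO, 2.03, 1.19, 1.90, 1.96 and 1.20 CPM in HET and 1.61, 2.51, 2.00, 2.37 and 1.22 CPM in WT. KO-696 stood far above every other library, and the other KO libraries were above HET but overlapped WT. KO differed by 0.83 ± 0.33 (SE, log2) from WT (edgeR adjusted p = 0.135) and by 1.04 from HET (edgeR adjusted p = 0.095). The difference from WT was 0.34 without KO-696 (edgeR adjusted p = 0.418), 0.49 with the number range as a term (0.540) and 0.19 with the animals from 700 up alone (0.773).

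The class I heavy chain H2-K1 had 38.1, 29.7, 27.6, 27.9 and 35.1 CPM in KO, 35.4, 32.1, 34.9, 30.7 and 29.9 CPM in HET and 41.7, 30.2, 46.0, 43.6 and 65.5 CPM in WT. The WT libraries other than WT-719 lay above all KO and HET libraries. The log2 fold change was -0.52 ± 0.15 (SE) in KO against WT, with an edgeR adjusted p of 0.058, and -0.48 ± 0.15 (SE) in HET against WT, with an edgeR adjusted p of 0.981. Without WT-719 the first was -0.63 with an edgeR adjusted p of 0.022, and without WT-726 it was -0.36 with an edgeR adjusted p of 0.106. DESeq2 gave it an adjusted p of 0.015. H2-D1, the other classical heavy chain here, had 59.7 CPM in KO-695 and 18.2 to 23.9 CPM in the other KO libraries, between 17.9 and 21.2 CPM in HET, and between 14.5 and 24.9 CPM in WT. Its log2 fold change of 0.42 ± 0.28 (SE) was -0.035 without KO-695. Reads of H2-K1, H2-D1 and their many near copies may be shared, and the labels do not give the MHC haplotype of the mice, so these values are uncertain. Tap1, Tap2, Psmb8 and Psmb9 lie between H2-K1 and H2-D1 on chromosome 17, and Tapbp lies near H2-K1. What part the haplotype has in their counts was not tested.

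B2m, the light chain of class I molecules, was the most abundant member per exon length, at a mean of 1674 CPM per kilobase over all libraries, against 13.5 for Irf9, 12.4 for H2-K1 and 9.01 for H2-D1. It had 1197, 1102, 1064, 1739 and 1305 CPM in KO, 1405, 1351, 1692, 1508 and 1485 CPM in HET and 1560, 1396, 1567, 1684 and 1538 CPM in WT. The KO libraries other than KO-738 lay below all HET and WT libraries, and KO-738 lay above them all. KO differed from WT by -0.27 ± 0.11 (SE, log2) with an edgeR adjusted p of 0.150. Without KO-738 it was -0.41 with an edgeR adjusted p of 0.0033, with the number range as a term -0.10 (0.627) and with the animals from 700 up alone -0.025 (0.939). In limma voom it was -0.36 with an adjusted p of 0.028.

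The heterozygotes showed no call. In HET against WT edgeR called 0 members and 0.00% of all genes, with 2 members at an unadjusted p under 0.05 (Mx2, 0.42 higher, and H2-K1) beside 4.40% of genes, and DESeq2 and limma voom called 0 members. The median member log2 fold change was 0.03, with 22 of 34 above 0 beside 52.8% of genes. For 0 members did all HET libraries lie above all WT libraries, as they did for 0.717% of genes, and for 0 below (0.325%). In KO against HET 2 members were called higher (Rsad2 and Tap1) and 0 lower, beside 1.96% of all genes called. DESeq2 and limma voom called Rsad2, Tap1 and Nlrc5 (8.82% of members), beside 6.41% and 9.84% of all genes. The KO libraries lay above all HET libraries for those 3, against 2.18% of all genes, and 5 members had an unadjusted p under 0.05, all higher (20.8% of genes did in either direction). For 0 members did all KO libraries lie below HET, against 1.42% of genes. The median was 0.10, with 22 of 34 above 0 beside 47.5% of genes. Calls in KO against HET fell to 0 members without KO-696, HET-693, HET-715 or HET-735, beside 0.0257%, 0.0307%, 0.0154% and 0.00% of all genes. They fell to 1 without KO-694, KO-695, KO-739, HET-718, WT-719, WT-720 or WT-723, beside 0.158% to 1.71% of all genes. Without KO-738 there were 5 higher and 1 lower, beside 12.5% of all genes called. Both comparisons of KO share the KO libraries, and those with WT share the WT libraries.

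KO-696 was the highest of the 15 libraries for 16 of 34 members (47.1%), against 9.74% of all genes. Within the KO group it was the highest for 22 members (64.7%; 16.6% of all genes). Without it, 22 of 34 members had a log2 fold change above 0 in KO against WT, and the median was 0.05. Rsad2 was then the 1 member called, beside 1.63% of all genes. KO-738 was the lowest KO library for 15 of 34 members (44.1%; 20.9% of all genes), and without it 5 members were called higher and 1 lower (Rsad2, Gbp2, Tap1, Gbp3, Xaf1 and B2m) beside 15% of all genes called. Leaving out WT-723 or WT-726 also left Rsad2 as the 1 call, beside 2.27% and 3.25% of all genes. Leaving out WT-719 left Rsad2 and H2-K1, beside 2.74% of all genes.

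Other genotypes held animals that were high in part of the members, mainly the antiviral effectors. HET-715 was the highest HET library for 16 of 34 members (47.1%) and 10 of 14 antiviral effectors (19.7% of all genes). WT-719 was the highest WT library for 11 members (32.4%) and 7 effectors (24% of all genes). In a further list of 39 interferon-induced genes, described below, HET-715 and WT-719 were highest in their genotype for 9 each. There HET-718 was highest of HET for 11 and WT-720 of WT for 12, while KO-696 was highest of KO for 20. HET-715 had 4.12 CPM of Ifit1, 5.71 CPM of Ifit3, 5.50 CPM of Ifi44 and 1.27 CPM of Mx1, each the top HET value. WT-719 had 2.66 CPM of Ifit1, 4.31 CPM of Ifit3, 7.02 CPM of Oasl2 and 5.72 CPM of Ifi44, each the top WT value. For the guanylate-binding proteins both lay below KO-696: Gbp2 had 14.5 CPM in KO-696, 8.46 CPM in HET-715 and 7.22 CPM in WT-719, and Gbp3 had 11.6, 4.97 and 5.02 CPM in the same libraries. WT-719 was still the highest WT library for Gbp3 and Gbp7. The coefficient of variation was largest in KO for 21 of 34 members (61.8%), and for 52.6% of all genes.

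**Figure D4:**
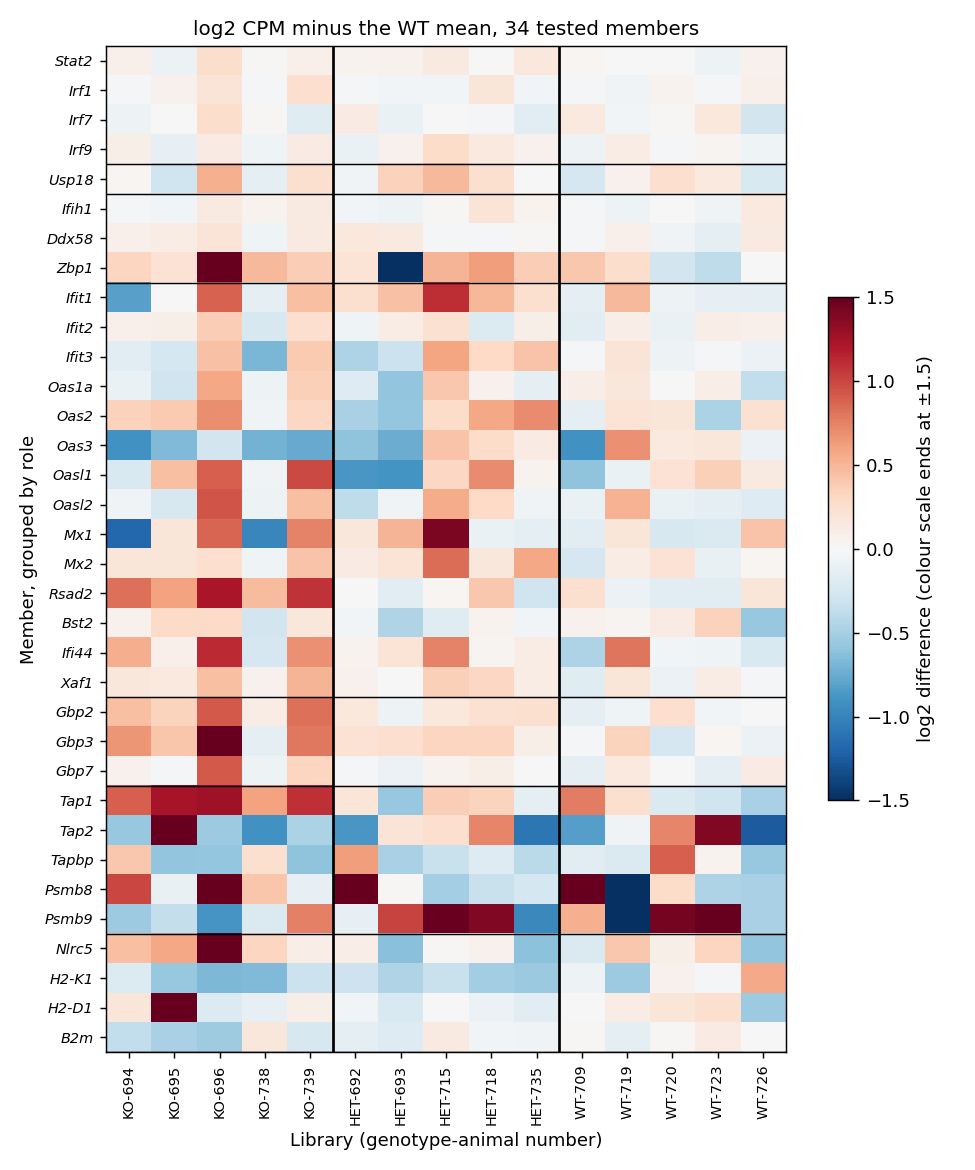
Log2 CPM minus the WT mean (colour, ending at ±1.5) for the 34 tested members (rows, by role) in each library (columns, KO, HET and WT from left to right). KO-696 is the reddest column through the antiviral and guanylate-binding rows, HET-715 is red in Ifit1, Mx1 and Ifi44, and the Tap2, Psmb8 and Psmb9 rows change sign from animal to animal.

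Genes that surround the members were read from lists of the same pathway. Of 9 interferon genes, 6 had 0 counts in all 15 libraries and the rest 11 counts together among 436.1 M, so these 9 were at or near the detection limit; other interferon genes were not read. The receptors and Janus kinases were all expressed, and edgeR called 11.1% of them in KO against WT, beside 6.0% of all genes. Of these 9, edgeR called 0 higher and 1 lower in KO against WT (DESeq2 and limma voom each called Ifnlr1 higher as well): Jak2, the kinase of the gamma receptor, had 120.6, 117.8, 113.2, 142.2 and 135.0 CPM in KO, 128.6, 146.5, 156.1, 149.5 and 146.8 CPM in HET and 144.4, 162.2, 141.6, 143.6 and 159.9 CPM in WT. KO-738 alone reached the WT range. Its log2 fold change of -0.26 ± 0.07 (SE) had an edgeR adjusted p of 0.039, and lost the call without KO-694, KO-695, KO-696 or any 1 WT library (edgeR adjusted p from 0.053 to 0.092).

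Of 39 tested other interferon-induced genes, 3 were called higher and 0 lower (7.69%, near the 6.0% of all genes), with 31 log2 fold changes above 0 (46.8% of all genes were) and a median of 0.28. At an unadjusted p under 0.05, 19 were higher and 0 lower, 48.7% of the list beside 23.6% of all genes. DESeq2 called 11 and limma voom 4, beside 9.95% and 8.43% of all genes. Sp100, a component of PML nuclear bodies, had 7.43, 7.10, 9.31, 7.55 and 9.91 CPM in KO, 6.12, 5.35, 5.85, 6.48 and 6.19 CPM in HET and 4.57, 6.02, 5.89, 5.33 and 5.46 CPM in WT. Like Rsad2, it separated all KO libraries from all others. KO exceeded WT by 0.60 ± 0.11 (SE, log2, edgeR adjusted p = 0.0069), and it stayed called without any 1 library; with the animals from 700 up alone it was 0.69, with an edgeR adjusted p of 0.119.

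Gbp5 had 2.05, 2.07, 7.94, 1.88 and 3.16 CPM in KO, 1.88, 1.12, 1.76, 1.75 and 1.68 CPM in HET and 1.08, 1.60, 1.39, 0.88 and 1.39 CPM in WT. All KO libraries lay above WT, KO-696 furthest, and the log2 fold change was 1.45 ± 0.37 (SE, edgeR adjusted p = 0.033), or 0.86 without KO-696 (edgeR adjusted p = 0.053). It also lost the call without any 1 WT library (edgeR adjusted p from 0.054 to 0.080). Ifitm3, which blocks viral fusion, had 72.8, 88.3, 89.96, 76.6 and 81.0 CPM in KO, 81.5, 69.9, 70.1, 73.0 and 67.0 CPM in HET and 62.2, 66.3, 77.4, 63.5 and 68.8 CPM in WT. The groups overlapped at WT-720. KO exceeded WT by 0.27 ± 0.07 (SE, log2, edgeR adjusted p = 0.038), and the call was lost without KO-695, KO-696, KO-739, HET-693, HET-715, HET-718, WT-709, WT-719, WT-723 or WT-726 (edgeR adjusted p from 0.051 to 0.114). Jak2, Gbp5 and Ifitm3 also lost their calls with KO and WT fitted alone, with the number range as a term and with the animals from 700 up alone, Gbp5 with no filter on low counts and Ifitm3 in limma voom. The whole list had 1 call without KO-696, where 1.63% of all genes were called, and 15 without KO-738, where 15% were.

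Among the remaining lists edgeR called 0 of 6 other pathway factors, 0 of 14 nucleic acid sensors, 0 of 19 other class I genes and 0 of 7 constitutive proteasome subunits, with 2, 3, 5 and 1 at an unadjusted p under 0.05. DESeq2 called 0, 1, 2 and 1 and limma voom 0, 0, 1 and 0. Of all genes, edgeR called 6.0%, DESeq2 9.95% and limma voom 8.43%. The lists' shares at an unadjusted edgeR p under 0.05 were 33.3%, 21.4%, 26.3% and 14.3%, beside 23.6% of all genes. Irf5, a factor downstream of Toll-like receptors, had 3.25, 3.44, 2.86, 2.22 and 3.40 CPM in KO, 2.91, 1.84, 2.26, 2.37 and 2.02 CPM in HET and 2.23, 2.36, 2.11, 2.96 and 2.04 CPM in WT. KO-694, KO-695 and KO-739 exceeded the highest WT library (log2 fold change 0.38 ± 0.16, SE, edgeR adjusted p = 0.157, and 0.047 without KO-738). Samhd1, which depletes nucleotides that viruses need, had 41.9, 39.9, 44.2, 42.2 and 42.2 CPM in KO, 42.7, 36.3, 39.4, 40.0 and 38.6 CPM in HET and 38.1, 39.1, 39.5, 35 and 37.7 CPM in WT. All KO libraries were above WT by a small margin (0.15 ± 0.05, SE, edgeR adjusted p = 0.080).

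The nonclassical class I gene H2-Q4 had 7.32, 8.64, 10.3, 7.67 and 8.06 CPM in KO, 6.0, 4.77, 6.52, 5.79 and 6.92 CPM in HET and 4.69, 6.72, 6.82, 6.90 and 4.24 CPM in WT. The KO libraries lay above all others, with a log2 fold change of 0.52 ± 0.15 (SE, edgeR adjusted p = 0.0505). Psmb6, the constitutive subunit that Psmb9 replaces, had 13.1, 4.70, 24.3, 5.95 and 4.69 CPM in KO, 6.53, 5.21, 5.46, 5.64 and 5.50 CPM in HET and 4.57, 4.06, 5.68, 5.15 and 4.60 CPM in WT. KO-694 and KO-696 alone were high (log2 fold change 1.13 ± 0.38, SE, edgeR adjusted p = 0.088, DESeq2 adjusted p = 0.022; 0.54 without KO-696).

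**Figure D5:**
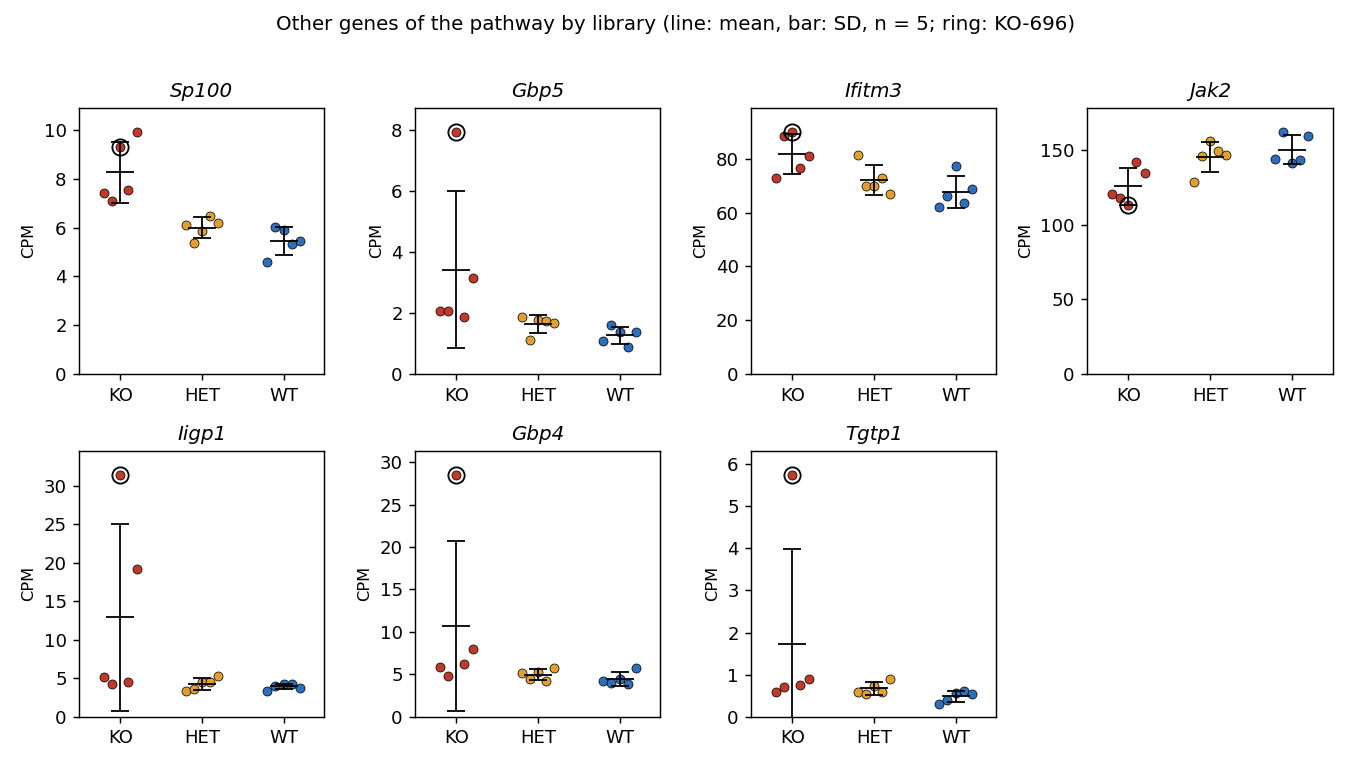
CPM per library (vertical axes from 0) in KO, HET and WT for 7 other genes of the pathway; points are animals, lines means, bars SD (n = 5, drawn down to 0 at most) and the ring KO-696. Sp100 and Gbp5 separated KO from WT, while the high KO means of Iigp1, Gbp4 and Tgtp1 came from KO-696, with KO-739 second for Iigp1 (19.2 CPM).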

How the data were processed

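The deposited values are raw read counts per NCBI Gene ID for 15 mRNA libraries, 5 per genotype. The submitters' processing notes name HISAT2 2.0.5, Subread 1.4.6p5 (featureCounts), FastQC and the build GRCm38.p6; the strand setting and annotation release are not given in the sources used here. Members and lists were chosen with earlier results of these data known. IDs were named through a RefSeq table of GRCm38.p6 (96.9% of 41591). The tests ran in edgeR 4.0.16 (R 4.3.3) on the authors' counts (TMM factors, filterByExpr on genotype, robust quasi-likelihood test, 1 mean per genotype over all 15 libraries, 12 residual degrees of freedom). Two-sided p-values got Benjamini-Hochberg adjustment across all 19388 genes; 0.05 was the threshold. The fit was tried on simulated counts with the same spread for every gene and no deviating libraries. These data differ from that setting, so the trial does not bear on single calls here. CPM values use TMM library sizes, and levels compared between genes were divided by union exon length (GENCODE, GRCm38). The biological coefficient of variation was 16.3%, so counting error limits the lowest members only. No pair of libraries agreed within sampling noise (chi-square per degree of freedom of at least 20.8 in KO, 5.57 in HET and 6.28 in WT). P-values set differences between genotype means against the spread between these animals.

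The genes named with every library's value were those called in any comparison, members with the next smallest p to make 8, the member with the highest level per length in each role group, and from each list the genes called or the smallest p. Values for KO-696, Iigp1, Gbp4, Tgtp1 and other members were singled out after they were seen. One pathway gene is not reported here. Promoter windows came from RefSeq on GRCm38.p6, and motifs were searched on both strands. Alternatives were other scaling factors, omission of the 20 most abundant genes, DESeq2 1.42.0, limma 3.58.1 (voom with quality weights), other filters, fits on 2 genotypes at a time, a term for (or restriction by) animal numbers from 700 up, removal of HET-693 and KO-738, and of each library. Figures were drawn with matplotlib 3.10.9 (Python 3.11.15, pandas 2.3.3).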

Additional observations from a re-analysis of the deposited data

Results flagged for a closer look

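Within each genotype, a library was picked out when its gap to the nearest of the other 4 exceeded Dixon's 95% value for the range of the group. Of 128 groups of 5 values, over the members and the named pathway genes, 18 were picked out (14.1%). Independent, normally distributed values would give about 1 in 20, or 6.4. The values here were untransformed CPM, and the genes are not independent of each other, so an excess over chance was not tested. All values picked out were high except Gbp5 in HET-693.

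KO-696 was picked out 4 times, always high. It had 1.45 CPM of Zbp1 (0.53 to 0.66 in the other KO libraries), 4.78 CPM of Psmb8 (0.39 to 0.93), 7.20 CPM of Nlrc5 (2.03 to 2.85) and 7.94 CPM of Gbp5 (1.88 to 3.16). KO-695 was picked out for Tap2, with 5.95 CPM (0.69 to 0.96), and for H2-D1, with 59.7 CPM (18.2 to 23.9). KO-739 was picked out for Psmb9, with 0.866 CPM (0.23 to 0.41).

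HET-715 was high in Ifit1, with 4.12 CPM (2.24 to 2.69 in the other HET libraries), and in Ifi44, with 5.50 CPM (3.35 to 3.76). HET-692 was high in Tapbp, with 17.3 CPM (7.92 to 9.72), and in Psmb8, with 1.5 CPM (0.28 to 0.43). HET-718 had 37.2 CPM of Irf1 (31.8 to 32.0), and HET-693 was low in Gbp5, with 1.12 CPM (1.68 to 1.88).

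WT-719 was high in 4 antiviral effectors: 2.66 CPM of Ifit1 (1.69 to 1.79 in the other WT libraries), 4.31 CPM of Ifit3 (3.55 to 3.73), 7.02 CPM of Oasl2 (4.24 to 4.54) and 5.72 CPM of Ifi44 (2.34 to 3.18). WT-709 was high in Psmb8, with 2.27 CPM (0.10 to 0.54). What sets these animals apart was not tested.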

How the results depend on the processing

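Rsad2 was called in KO against WT under 9 of 10 alternatives and all 15 fits without 1 library; Gbp2 and Tap1 were called under 7 of 10 and 9 of 15. Members called higher (3) and lower (0) numbered 1 and 0 with only the 2 groups compared, 1 and 0 with the number range as a term, 0 and 0 with animals from 700 up, and 5 and 1 without HET-693 and KO-738; DESeq2 and limma voom each called 1 lower. Genes called in KO against WT (1163) were 1930 by DESeq2, 287 with 2 groups, 177 with the range term, 0 from 700 up and 2722 without HET-693 and KO-738. Members called higher in KO against HET (2) were 0 with 2 groups, 1 with the range term, 0 from 700 up and 4 (with 1 lower) without HET-693 and KO-738; all genes (380) were 1242 by DESeq2, 1907 by limma voom, 0 with 2 groups, 0 from 700 up and 1660 without HET-693 and KO-738. DESeq2 called 1 gene in HET against WT. With 1 library left out, KO against WT gave 1 to 5 members higher, 0 to 1 lower and 318 to 2923 genes, and KO against HET 0 to 5, 0 to 1 and 0 to 2443. Psmb8 (-0.34 to 2.18 with 1 library left out) reversed to -0.39 with the range term, -0.54 from 700 up and -0.34 without KO-696, and H2-D1 (-0.035 to 0.54) to -0.042 from 700 up and -0.035 without KO-695; neither was called. The median member stayed above 0 in KO against WT in all settings (0.05 to 0.27). The causes of these shifts were not tested, except that fits of fewer groups or animals hold fewer libraries. All WT animals are numbered from 700 up, so that range and genotype are partly confounded. No paired analysis was possible because the genotypes share no animal numbers. Isg15, Oas3, Psmb9, Zbp1 and the other members under 1 CPM (8 in all) are limited by depth. Overlapping gene records (10 members) and near copies among the class I, Oas, Ifit and Gbp genes leave those counts uncertain.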

Other observations

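Some interferon-induced GTPases outside the member list spread widely among KO animals. Iigp1 had 31.4 CPM in KO-696 and 19.2 CPM in KO-739, while the other 3 KO libraries held 4.28 to 5.11 CPM, against 3.38 to 5.25 CPM among HET animals and 3.38 to 4.27 CPM among WT animals. Gbp4 had 28.5 CPM in KO-696 and 4.81 to 8.0 CPM in the other KO libraries, against 3.80 to 5.75 CPM in WT. Tgtp1 had 5.75 CPM in KO-696 and 0.58 to 0.90 CPM in the other KO libraries, against 0.31 to 0.62 CPM in WT. EdgeR called none of these 3 in KO against WT (adjusted p of 0.055, 0.077 and 0.080), limma voom none and DESeq2 Iigp1 and Gbp4. Without KO-696 their log2 fold changes were 1.08, 0.48 and 0.58, against 1.72, 1.27 and 1.85 with it. Of the 39 tested interferon-induced genes outside the list, 17 were highest of all 15 libraries in KO-696 (43.6%) and 9 in KO-739 (23.1%), against 9.74% and 13.5% of all genes.

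The neighbouring genes Psmb9 and Tap2 were high in overlapping sets of animals of both HET and WT. The 5 libraries above 1 CPM of Psmb9 (HET-693, HET-715, HET-718, WT-720 and WT-723) held 1.56 to 3.65 CPM of Tap2. In the other 10 libraries Tap2 stayed between 0.53 and 1.30 CPM except in KO-695, at 5.95 CPM. Of 8 T and NK cell markers 3 had enough counts to be tested, and edgeR, DESeq2 and limma voom called 0 in KO against WT (1 at an unadjusted edgeR p under 0.05). Their log2 fold changes were 0.54 for Cd3e, 0.11 for Klrb1c and -0.20 for Cd4, and their summed level ran from 1.73 to 3.06 CPM in KO, 1.89 to 2.78 CPM among HET animals and 1.35 to 2.30 CPM among WT animals.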
